A study of Homo sapiens with 6 samples.

Results

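The genes described here are 10 cell surface proteins that are used, or have been proposed, as targets of antibodies, bispecific molecules or CAR T cells in multiple myeloma: TNFRSF17, TNFRSF13B, GPRC5D, SLAMF7, CD38, SDC1, FCRL5, CD28, CD44 and BST2. They were taken by name from 20007 protein-coding genes. Open chromatin was mapped with Omni-ATAC, in which a transposase cuts accessible DNA. The cells were MM.1S, a long-established line derived from a patient with multiple myeloma. The groups were 3 libraries of cells exposed to 120 nM CB-6644 for 72 h and 3 libraries of cells given DMSO, the vehicle. The compound blocks the ATPases RUVBL1 and RUVBL2, which serve in several remodelers of chromatin. Live cells were sorted before the assay, so cells that had died under treatment were not sampled, and all libraries came from a single cell line. The comparison asks how open chromatin around these genes differed after RUVBL1/2 inhibition. No transcript or surface protein level was measured in these files. A lower peak in a bulk sample may come from fewer cells with an open site or from less opening per cell, and these cannot be told apart.

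The surface of a plasma cell is specialised for long survival and adhesion. TNFRSF17 (BCMA) and TNFRSF13B (TACI) are receptors for the survival ligands APRIL and BAFF, and BCMA is shed from the membrane by gamma-secretase. GPRC5D is an orphan G protein-coupled receptor found largely on plasma cells and in hair follicles, SLAMF7 is a self-binding receptor of the SLAM family, CD38 is an ectoenzyme that consumes NAD, SDC1 (CD138) is the heparan sulfate proteoglycan that marks plasma cells, and FCRL5 is an Fc receptor-like protein of B lineage cells. CD28 is a costimulatory receptor for CD80 and CD86 that some myeloma cells carry, CD44 is a receptor for hyaluronan in the marrow matrix, and BST2 (tetherin) is an interferon-induced membrane protein. The promoter and distal elements of such genes are usually held open by the transcription factors of the cell type, which is why peaks around them are informative about the state of the cell.

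Each library had its own list of called peaks. The lists held 58563 to 79020 peaks, with no read totals. The lowest background of any peak in a list, recovered from the peak scores and divided by the shortest peak length, stood in for depth. It was 3.20 to 7.05 tags per kb with CB-6644 and 6.40 to 9.08 tags per kb with DMSO. A missing peak therefore means that none was detected at that depth. CB-6644 replicate 2 and DMSO replicate 1 had shorter shortest peaks (65 and 91 bp) than the other 4 libraries (131 to 152 bp), and are called short-fragment libraries below. Promoters of all 7 plasma cell markers, of which TNFRSF17 and SDC1 are members, had a peak in all 6 libraries, while those of the B cell gene MS4A1 and the T cell genes CD3D, CD3E, CD3G and CD2 had none in any. Promoter peaks in all 6 libraries were found at 3 of 5 mature B cell, 1 of 5 T cell, 2 of 5 myeloid, 1 of 5 stromal and 1 of 5 erythroid markers.

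Peaks that overlapped by at least 1 bp were merged across libraries. The gene bodies with 50 kb on each side held 159 of 89196 merged regions, 16 at promoters (within 1000 bp of a start site), 34 elsewhere in the genes and 109 in the flanks. Of these, 78 were called in all 6 libraries, 5 only in all 3 DMSO libraries, 1 only in all 3 CB-6644 libraries and the other 75 in other combinations, including 19 in a single library. Another coding gene's promoter overlapped 15 of the 159 regions. Library by library, the 159 regions had a peak in 104, 102 and 104 cases in CB-6644 replicates 1, 2 and 3, and in 132, 127 and 120 cases in DMSO replicates 1, 2 and 3. Below, values are given in that order of replicates. The strength of a peak is given as the percentile of its -log10 p within its own list, where 100 is the strongest.

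The sequences at sites picked from those described below are shown first, as 101 bases centred on the strongest summit. They were read from hg38 on the strand of the gene. Capitals mark a match to 1 of 9 consensus motifs. The first pair is the upstream promoter region of GPRC5D and the intronic region just inside the gene. The SLAMF7 pair is a region seen only with DMSO and its neighbour in the same gene, and 3 further DMSO-only sites follow, at CD28, TNFRSF13B and CD44. The last 3 are the CB-6644-only site near SLAMF7 and the shared regions near FCRL5 and CD44 with the largest differences in each direction.
GPRC5D promoter, chr12:12952186-12952286 (minus strand), ETS match: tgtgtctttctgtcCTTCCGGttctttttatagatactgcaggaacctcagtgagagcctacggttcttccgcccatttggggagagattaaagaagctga
GPRC5D intron, chr12:12951135-12951235 (minus strand): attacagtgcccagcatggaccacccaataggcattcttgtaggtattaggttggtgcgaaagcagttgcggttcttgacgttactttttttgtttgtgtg
SLAMF7 intron, DMSO-only, chr1:160741371-160741471 (plus strand): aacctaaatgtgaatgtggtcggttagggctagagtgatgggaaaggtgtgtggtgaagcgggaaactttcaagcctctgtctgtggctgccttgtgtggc
SLAMF7 intron, shared, chr1:160743390-160743490 (plus strand): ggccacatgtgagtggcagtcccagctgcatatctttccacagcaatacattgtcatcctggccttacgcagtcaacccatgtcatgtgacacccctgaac
CD28 upstream, DMSO-only, chr2:203694363-203694463 (plus strand), IRF match: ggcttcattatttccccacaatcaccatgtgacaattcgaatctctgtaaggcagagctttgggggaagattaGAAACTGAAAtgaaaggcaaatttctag
TNFRSF13B distal, DMSO-only, chr17:16900765-16900865 (minus strand): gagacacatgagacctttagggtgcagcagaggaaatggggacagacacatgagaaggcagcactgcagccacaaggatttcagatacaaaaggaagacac
CD44 intron, DMSO-only, chr11:35174850-35174950 (plus strand), STAT match: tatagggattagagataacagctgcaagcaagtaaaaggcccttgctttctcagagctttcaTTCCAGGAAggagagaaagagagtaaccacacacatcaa
SLAMF7 distal, CB-6644-only, chr1:160689652-160689752 (plus strand), MAF match: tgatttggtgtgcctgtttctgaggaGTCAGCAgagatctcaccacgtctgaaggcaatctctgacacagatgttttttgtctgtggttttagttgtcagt
FCRL5 distal, shared, chr1:157495448-157495548 (minus strand), E-box match: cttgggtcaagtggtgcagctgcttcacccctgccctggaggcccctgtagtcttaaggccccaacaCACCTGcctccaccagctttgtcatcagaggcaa
CD44 upstream, shared, chr11:35112684-35112784 (plus strand): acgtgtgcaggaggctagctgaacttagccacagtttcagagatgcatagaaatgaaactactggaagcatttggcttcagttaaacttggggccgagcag

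Promoters are taken first. A promoter peak was called in all 6 libraries at 9 of the 10 genes, all but FCRL5, against 63.5% of coding genes. At 4 genes, GPRC5D, CD38, CD44 and BST2, the percentile of the strongest promoter peak was lower in every CB-6644 library than in every DMSO library, and at none was it higher in every CB-6644 library. Among the 12711 coding genes with a promoter peak in all 6 libraries, 16.9% had the lower order and 1.67% the higher. Over all regions called in all 6 libraries, the median difference in percentile was -2.64. The smallest p that an exact two-sided permutation test of 3 against 3 libraries can give is 0.1, so none of these could pass 0.05. Nothing says that the libraries came from separate cultures, so the p-values measure only the spread between these libraries.

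**Figure D1:**
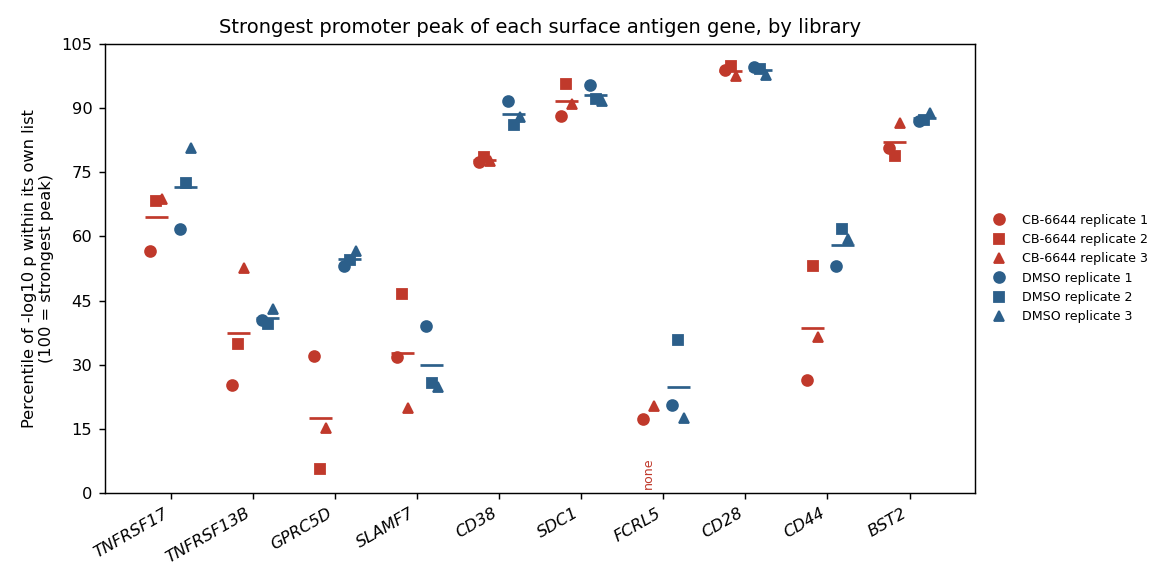
Percentile of -log10 p (vertical axis, 100 = strongest peak of that list) of the strongest promoter peak at each of the 10 genes, with 1 point per library (red, CB-6644; blue, DMSO; circle, square and triangle for replicates 1, 2 and 3) and bars for group means. The red and blue points are farthest apart at GPRC5D, where the DMSO libraries sit between 53.0 and 56.6 and the CB-6644 libraries between 5.49 and 32.0, and "none" marks the missing FCRL5 peak.

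GPRC5D (ENSG00000111291.9, chr12:12940575-12952170, minus strand) had the widest gap of the 10. Its promoter region (chr12:12952039-12952599) reaches from just upstream into the 5' UTR, and its strongest peak stood at percentiles 32.0, 5.49 and 15.2 with CB-6644 and 53.0, 54.4 and 56.6 with DMSO, which differed by -37.1 on average (exact two-sided permutation test, p = 0.1). The CB-6644 libraries were all lower and more scattered, with an SD of 13.4 percentile points against 1.80. The summit pile-up, in tags, was 25, 6 and 19 with CB-6644 and 36, 63 and 69 with DMSO, the 6 tags standing close to the fewest tags (4) of any peak in that library. On the fold enrichment over local background, the groups also did not overlap after normalization, by -0.68 on the log2 scale (SE 0.28), but the limma adjusted p was 0.306. The adjusted p of limma was 0.0121 on the normalized pile-up and 0.0211 on the percentile, and in the 4 long-fragment libraries alone the log2 fold enrichment differed by -0.32 (limma adjusted p = 0.323).

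A second GPRC5D region lay inside the gene, within an intron and 985 bp from the start site (chr12:12951054-12951314). It had a peak in all 3 DMSO libraries, at percentiles 31.8, 28.9 and 35.3 and pile-ups of 23, 37 and 46 tags, and in no CB-6644 library. This placed both called regions at the start of GPRC5D lower in, or missing from, the CB-6644 lists. The leading region away from promoters, within the body of the neighbouring paralog GPRC5A, differed by -0.15 on the log2 scale (SE 0.08; limma adjusted p = 0.406), and the promoter of the other neighbour, HEBP1, was among the strongest peaks of every library, at percentiles of 96.4 to 98.9.

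CD38 (ENSG00000004468.13, chr4:15778275-15853232, plus strand) had tightly grouped promoter values. The percentiles were 77.3, 78.5 and 77.6 with CB-6644 and 91.7, 86.2 and 87.9 with DMSO, which differed by -10.8 on average (exact two-sided permutation test, p = 0.1). The pile-up was 118, 57 and 153 tags with CB-6644 against 216, 248 and 251 with DMSO. All CB-6644 libraries were thus lower on both measures, though these tags were not scaled for depth. Fold enrichment over the local background did not follow them: it was 13.9, 20.7 and 13.3 with CB-6644 and 23.0, 14.1 and 13.4 with DMSO, and the log2 difference after normalization was 0.05 (SE 0.21; limma adjusted p = 0.931). The limma adjusted p was 0.0184 on the normalized pile-up, with a log2 difference of -0.60, and 0.0283 on the percentile. Whether the promoter of CD38 differs therefore depends on the measure.

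The strongest element of CD38 away from the promoter was in an intron, 6.80 kb into the gene (chr4:15784754-15785444). It reached percentiles of 85.0 to 95.8 in the 6 libraries, above the promoter in 5 of them, and differed by 0.11 on the log2 scale (SE 0.10; limma adjusted p = 0.640). A region 6.70 kb upstream of the start (chr4:15771353-15771903) stood at 57.3, 63.8 and 61.0 with CB-6644 and 75.0, 78.7 and 74.9 with DMSO, with no overlap. Its log2 fold enrichment differed by -0.28 with a limma adjusted p of 0.321, so it did not pass.

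CD44 (ENSG00000026508.21, chr11:35138882-35232402, plus strand) had promoter percentiles of 26.4, 53.0 and 36.5 with CB-6644 and 53.1, 61.7 and 59.4 with DMSO (difference -19.4, exact two-sided permutation test, p = 0.1). The groups were separated by a narrow margin, since the highest CB-6644 value and the lowest DMSO value, both from short-fragment libraries, nearly met. The log2 fold enrichment of the region (chr11:35138821-35139907) differed by -0.23 (SE 0.26; limma adjusted p = 0.711). The value was -0.50 without CB-6644 replicate 2 (limma adjusted p = 0.181) and -0.55 in the 4 long-fragment libraries (limma adjusted p = 0.0907). Pile-up there was 45, 39 and 85 tags with CB-6644 and 63, 120 and 114 with DMSO, which overlapped between the groups.

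BST2 (ENSG00000130303.14, chr19:17402939-17405630, minus strand) shares its promoter region (chr19:17405208-17406198) with the divergent neighbour MVB12A, so the peak cannot be assigned to either. Percentiles were 80.7, 78.9 and 86.5 with CB-6644 and 87.0, 87.2 and 88.8 with DMSO, which differed by -5.65 on average (exact two-sided permutation test, p = 0.1). The region held IRF and STAT matches, the sites through which interferon-stimulated factors act. Its log2 fold enrichment differed by 0.07 (SE 0.15; limma adjusted p = 0.849). A further weak region over the BST2 promoter was called in 3 libraries, in both groups, at percentiles of at most 7.14.

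At the other promoters the groups overlapped. TNFRSF17 (ENSG00000048462.11, chr16:11965210-11968068, plus strand) had percentiles of 56.7, 68.2 and 68.7 with CB-6644 and 61.7, 72.5 and 80.6 with DMSO (difference -7.06, exact two-sided permutation test, p = 0.4), and its log2 fold enrichment differed by 0.27 (SE 0.24; limma adjusted p = 0.633). The percentile difference was -11.99 without DMSO replicate 1, where the groups no longer overlapped (exact two-sided permutation test, p = 0.1), -2.58 without DMSO replicate 3 and -3.15 without CB-6644 replicate 1. The related receptor TNFRSF13B (ENSG00000240505.9, chr17:16929816-16972118, minus strand) had a weaker promoter, at 25.2, 34.8 and 52.5 with CB-6644 and 40.5, 39.5 and 43.0 with DMSO (difference -3.54, exact two-sided permutation test, p = 0.7). For these APRIL and BAFF receptors a difference in promoter accessibility was thus not detectable with 3 libraries a group. SDC1 (ENSG00000115884.11, chr2:20200797-20225433, minus strand) was strong throughout, at 88.2, 95.5 and 91.0 with CB-6644 and 95.3, 92.2 and 91.6 with DMSO (difference -1.47, exact two-sided permutation test, p = 0.5). Of 2 minor regions at SDC1 start sites, 1 was called in 2 DMSO libraries and 1 in a single CB-6644 library, none above percentile 8.78.

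CD28 (ENSG00000178562.18, chr2:203706475-203738912, plus strand) had the strongest promoter of the 10. Its percentiles were 99.0, 99.8 and 97.5 with CB-6644 and 99.6, 99.1 and 97.7 with DMSO, which placed this costimulatory gene near the top of every list (difference -0.07, exact two-sided permutation test, p = 0.9). A minor region 1.21 kb upstream of the main start (chr2:203705230-203705605) stood at 25.1, 7.44 and 37.6 with CB-6644 and 42.4, 51.8 and 57.2 with DMSO, and its log2 fold enrichment differed by -0.36 (SE 0.25; limma adjusted p = 0.535).

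The promoters of SLAMF7 and FCRL5 were weak. At SLAMF7 (ENSG00000026751.17, chr1:160739057-160754821, plus strand) the strongest promoter peak had percentiles of 31.9, 46.5 and 19.8 with CB-6644 and 39.1, 25.8 and 24.9 with DMSO (difference 2.81, exact two-sided permutation test, p = 0.7). Those peaks came from different regions: the one at the start site was called in all libraries but DMSO replicate 3, and the one 1.21 kb into the gene in all but CB-6644 replicate 2. The second of these stood at 4.70 and 6.84 in CB-6644 replicates 1 and 3 and at 31.7, 23.6 and 24.9 with DMSO. FCRL5 (ENSG00000143297.19, chr1:157513377-157552515, minus strand) had 17.3 and 20.3 in CB-6644 replicates 1 and 3, no peak in replicate 2, and 20.7, 35.9 and 17.5 with DMSO.

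Regions called in 1 group only were few. The 5 DMSO-only regions were 3.14% of the 159, beside 4.5% of all merged regions that were DMSO-only, and the single CB-6644-only region stands beside 0.586% of all merged regions. With equal numbers of top peaks the DMSO-only regions were 5 of 132, beside 2.46% of all regions, and in the 4 long-fragment libraries 15 of 144, beside 9.21%. The shares were near the background, and the regions are described for where they lie. Each DMSO-only region belonged to a different gene: GPRC5D, SLAMF7, CD28, TNFRSF13B and CD44. TNFRSF17, CD38, SDC1, FCRL5 and BST2 had none.

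The SLAMF7 intron held the strongest of them, 2.17 kb into the gene (chr1:160741337-160741524). With DMSO its -log10 p was 104, 65.9 and 47.5, its percentile 78.2, 58.3 and 48.5 and its pile-up 114, 111 and 90 tags, and no peak was called with CB-6644. The fewest tags of any peak in the CB-6644 lists, 4 to 8, are minima over the whole genome. The number of tags needed for a call at this site is not known. About 2 kb further into the same gene, 4.19 kb from the start (chr1:160743333-160743575), a region was called in all 6 libraries, with percentiles of 61.4, 73.0 and 61.9 with CB-6644 and 58.0, 46.6 and 37.9 with DMSO. The order there was the opposite, with all CB-6644 libraries above all DMSO libraries. Its log2 fold enrichment differed by 0.86 (SE 0.26), which did not pass in the fit with group as the only term (limma adjusted p = 0.159), passed with the fragment-length set as a further term (limma adjusted p = 0.0111) and was 0.80 in the 4 long-fragment libraries (limma adjusted p = 0.0249). Neither printed sequence held a match to any of the 9 motifs, though the wider window searched at the shared region held an E-box.

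The CD28 site lay 12.2 kb upstream of the gene (chr2:203694262-203694530). Percentiles with DMSO were 46.4, 51.1 and 38.9 and pile-ups 33, 61 and 48 tags. Its IRF match, the capitals in the sequence above, is the kind of site that interferon regulatory factors such as IRF4 of plasma cells can bind, and is a match of letters only. The promoter of CD28 itself stayed at the top of every list, and the leading intronic region, 11.7 kb into the gene, had percentiles of 82.1 to 86.4 with CB-6644 and 91.8 to 92.9 with DMSO, with a log2 difference in fold enrichment of -0.11 (SE 0.09; limma adjusted p = 0.614). It was lower on the pile-up, by a log2 difference of -0.51 (limma adjusted p = 0.0419), and on the percentile, by -8.62 points (limma adjusted p = 0.0221).

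The remaining group-only sites were weaker or farther away. The TNFRSF13B site was 71.3 kb from the start, beyond the 3' end of the gene (chr17:16900646-16900926), with percentiles of 64.5, 46.8 and 29.2 and pile-ups of 41, 40 and 27 tags with DMSO. The CD44 site was in an intron 35.7 kb into the gene (chr11:35174810-35175009) and stood at only 5.49, 22.4 and 15.8 with DMSO. The CB-6644-only site lay 49.5 kb upstream of SLAMF7 within the body of CD48 (chr1:160689637-160689791), a SLAM family gene, at percentiles of 26.0, 5.49 and 32.3 and pile-ups of 25, 6 and 31 tags. When each list was cut to the length of the shortest, the sites at GPRC5D, SLAMF7, CD28 and TNFRSF13B were still DMSO-only, while the CD44 site and the CB-6644-only site were lost. None of the 6 stayed group-only among the 20000 top peaks of each library.

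**Figure D2:**
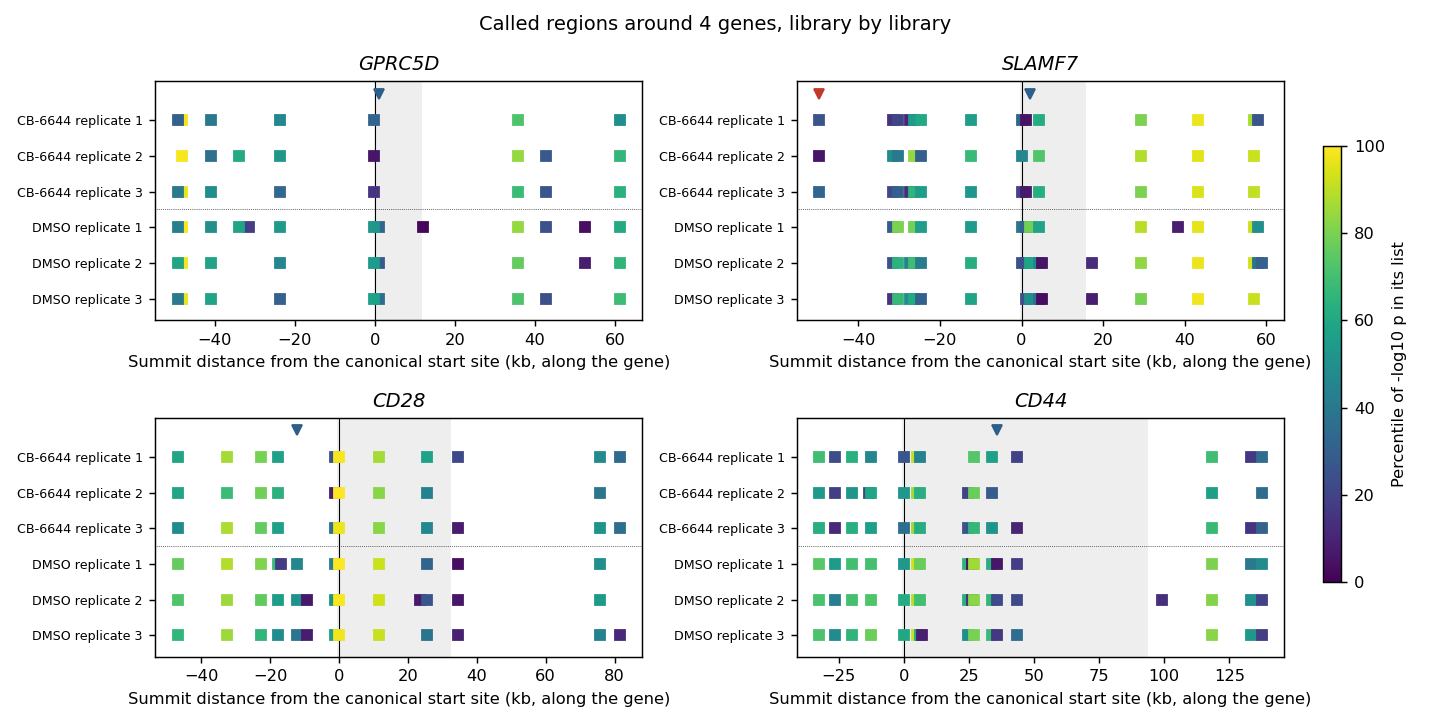
Called regions around GPRC5D, SLAMF7, CD28 and CD44, placed by the distance of the summit from the canonical start site (horizontal axis, kb along the direction of the gene; grey, gene body), 1 row per library, coloured by the percentile of -log10 p in its list; triangles mark regions called in all DMSO libraries only (blue) or all CB-6644 libraries only (red). A blue triangle stands 985 bp inside GPRC5D, 2.17 kb inside SLAMF7, 12.2 kb before CD28 and 35.7 kb inside CD44, and the row of yellow squares at 0 on the CD28 panel is its promoter.

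The 78 regions called in all 6 libraries were compared on log2 fold enrichment, quantile-normalized, with limma across all 42089 such regions of the genome. None of the 78 passed an adjusted p of 0.05 in either direction, beside 0.418% of shared regions lower and 0.321% higher genome-wide. At an unadjusted p under 0.05, 5 were lower and 7 higher, beside 14.4% of all shared regions in either direction. The groups did not overlap in 8 regions with CB-6644 lower and 12 with CB-6644 higher, beside 10.7% of shared regions for each direction. The median log2 difference over the 78 was 0.07, beside 0.02 over all shared regions. It was negative in 32 of the 78 (41.0%), beside 46.3% of all shared regions. With the fragment-length set as a term, 4 were lower and 4 higher, beside 6.09% and 4.22% genome-wide. These shares were near the background, so they are no result about the antigens as a group. On the summit pile-up 8 of the 78 were lower (10.3%) and 3 higher (3.85%), beside 5.4% and 4.7% genome-wide, and on the percentile 9 were lower (11.5%) and 1 higher (1.28%), beside 6.43% and 1.35%. In the 4 long-fragment libraries, which shared 90 regions at the 10 genes, 3 were lower and 4 higher, beside 4.33% and 3% genome-wide. The lower share was above the genome-wide share on pile-up and percentile but not on fold enrichment, and these differences in share were not tested.

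**Figure D3:**
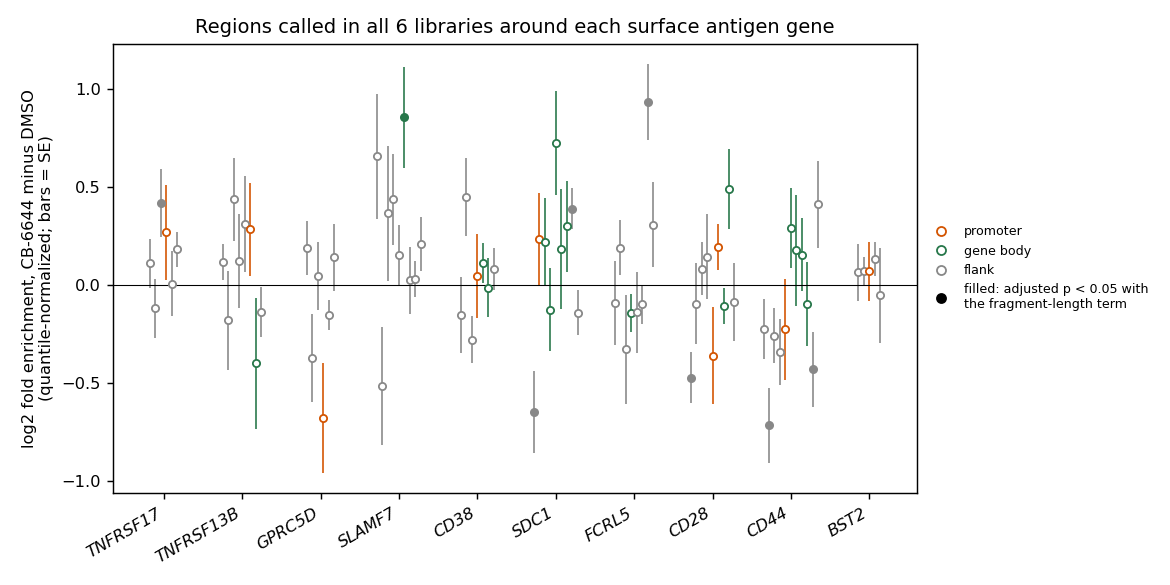
Difference in quantile-normalized log2 fold enrichment, CB-6644 minus DMSO (vertical axis; bars are standard errors), of the 78 regions called in all 6 libraries, by gene and in order along it, coloured by place; filled points have an adjusted p under 0.05 with the fragment-length term. The highest point is the FCRL5 distal region at 0.93, the lowest the CD44 upstream region at -0.71, and most points lie within 0.5 of 0.

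The region nearest to passing was near FCRL5, 57.0 kb from the start site and beyond the 3' end of the gene (chr1:157495306-157495618). It stood at percentiles of 58.0, 70.0 and 60.5 with CB-6644 and 33.9, 33.7 and 24.8 with DMSO, and its fold enrichment was 14.5, 21.2 and 16.2 against 11.1, 10.1 and 7.74. Every CB-6644 library was higher, by 0.93 on the log2 scale (SE 0.19; limma adjusted p = 0.0582). The limma adjusted p was 0.00529 with the fragment-length term, 0.0351 without CB-6644 replicate 2 and 0.0214 in the 4 long-fragment libraries. The region passed in 5 of the 15 alternative fits that held it. In the others it did not pass, with a limma adjusted p of 0.151 with the replicate block and of up to 0.274. Its sequence above held an E-box (CAGGTG on the other strand), and a MAF match lay within the wider window searched. No coding gene body overlapped it.

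Within FCRL5, the region 28.2 kb from the start (chr1:157523878-157524608), which overlaps an annotated UTR, was strong and in the other order. Its percentiles were 79.7, 80.5 and 83.3 with CB-6644 and 92.9, 95.0 and 93.3 with DMSO, and its pile-up was 96, 49 and 138 tags against 191, 300 and 258. The log2 fold enrichment differed by -0.14 (SE 0.10; limma adjusted p = 0.533), whereas the pile-up differed by -0.86 (limma adjusted p = 0.00474). The strongest flanking region, 46.7 kb from the start, reached 85.2 to 93.4 in all libraries and differed by -0.10 (SE 0.10; limma adjusted p = 0.678).

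CD44 held the shared region with the most negative difference, 26.4 kb upstream of its start (chr11:35112511-35112869). Percentiles were 22.9, 18.4 and 11.3 with CB-6644 and 54.9, 42.1 and 47.4 with DMSO, and the log2 fold enrichment differed by -0.71 (SE 0.19; limma adjusted p = 0.114, and 0.0209 with the fragment-length term). All 5 shared regions from 32.4 kb upstream through the promoter had negative values, from -0.22 to -0.71, while the strongest element of the gene, in an intron 5.05 kb past the start, had 0.29 (SE 0.20; limma adjusted p = 0.541) and percentiles of 85.7 to 92.3. Another intronic CD44 region, 24.7 kb into the gene (chr11:35163801-35164033), was called at 64.5, 63.0 and 48.5 with DMSO, at 19.9 and 25.1 in CB-6644 replicates 2 and 3, and not in CB-6644 replicate 1.

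Other members had regions that passed only in some fits. SDC1 had 1 higher and 1 lower with the fragment-length term: a region 26.9 kb from the start past the 3' end (chr2:20197952-20198537) differed by 0.39 (SE 0.11; limma adjusted p = 0.118, and 0.0209 with that term), with percentiles of 85.0, 92.3 and 82.4 against 76.1, 75.0 and 74.7. The lower SDC1 region, 47.3 kb upstream in the body of PUM2, differed by -0.65 (SE 0.21; limma adjusted p = 0.184, and 0.0288 with that term). These lie on opposite sides of the gene, and the promoter of SDC1 between them differed by 0.23 (SE 0.24; limma adjusted p = 0.674). A region 46.8 kb upstream of CD28 differed by -0.47 (limma adjusted p = 0.127, and 0.0205 with the term). TNFRSF17 had a region 6.04 kb upstream, in the body of NPIPB2, that differed by 0.42 (limma adjusted p = 0.302, and 0.0468 with the term). Near SLAMF7, a region in CD48 (chr1:160708911-160709233) had pile-ups of 43, 25 and 61 tags with CB-6644 and 130, 136 and 141 with DMSO, a log2 pile-up difference of -1.07 (limma adjusted p = 0.00523) beside a fold enrichment difference of -0.52 (limma adjusted p = 0.471).

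CD44 had a second lower call with the fragment-length term, 118 kb from the start in the body of SLC1A2 (chr11:35257316-35257602), with a log2 fold enrichment difference of -0.43 (limma adjusted p = 0.348, and 0.0169 with the term) and a pile-up difference of -0.67 (limma adjusted p = 0.0478). Further regions passed in a single fit. On pile-up these were a CD28 intronic region 25.6 kb into the gene, higher by a log2 difference of 0.86 (limma adjusted p = 0.0469), and a CD44 intronic region 27.1 kb into the gene at -0.52 (limma adjusted p = 0.0453), where fold enrichment differed by 0.16. On the percentile it was the promoter of FCRL4, at -28.8 points (limma adjusted p = 0.0329). In the 4 long-fragment libraries they included a region 24.8 kb upstream of SLAMF7, higher by 0.76 (limma adjusted p = 0.0352), and a region 137 kb from the CD44 start in SLC1A2, higher by 0.67 (limma adjusted p = 0.0421).

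The leading elements of the remaining genes showed no difference that passed in the fit with group as the only term. They were a region 5.29 kb past the start of TNFRSF17 (log2 difference 0.01, SE 0.17), 1 upstream of TNFRSF13B by 16.2 kb (0.44, SE 0.21), 1 past the 3' end of SLAMF7 at 43.2 kb (0.03, SE 0.09), an SDC1 intronic region at 18.0 kb (0.30, SE 0.23) and 1 in CCDC194 at 14.4 kb from the BST2 start (0.13, SE 0.09). The SLAMF7 and BST2 elements were among the strongest of the 159 regions, with mean percentiles of 96.2 and 95.0. At TNFRSF13B a further region 17.7 kb upstream (chr17:16989249-16990061) had percentiles of 59.5, 68.2 and 71.1 with CB-6644 and 87.0, 85.2 and 85.5 with DMSO, and a log2 pile-up difference of -0.74 (limma adjusted p = 0.00673) beside -0.18 in fold enrichment (limma adjusted p = 0.766).

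The number of peaks in each gene's window was lower in every CB-6644 library than in every DMSO library at CD28 and CD44, 2 of the 10 genes, beside 6.92% of coding genes with that order and 0.485% with the opposite. CD28 had 11, 9 and 11 peaks with CB-6644 and 12, 13 and 13 with DMSO (difference -2.33, exact two-sided permutation test, p = 0.1), and CD44 had 15, 15 and 14 against 18, 18 and 16 (difference -2.67, exact two-sided permutation test, p = 0.1). GPRC5D had 7, 9 and 8 against 14, 10 and 9, and SLAMF7 15, 12 and 14 against 16, 17 and 15. Both of these groups met or overlapped. The mean was lower with CB-6644 at 9 of the 10 genes and equal at CD38, which had 11, 14 and 11 against 13, 12 and 11. The CB-6644 lists were also shorter on average, 63246 peaks against 71896 with DMSO. The share of coding genes with a lower mean was not computed, so the 9 of 10 cannot be read as particular to these genes. With every list reduced to equal numbers of top peaks, 0 of the 10 genes had every CB-6644 library below every DMSO library, and the sign of the difference turned at SDC1.

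**Figure D4:**
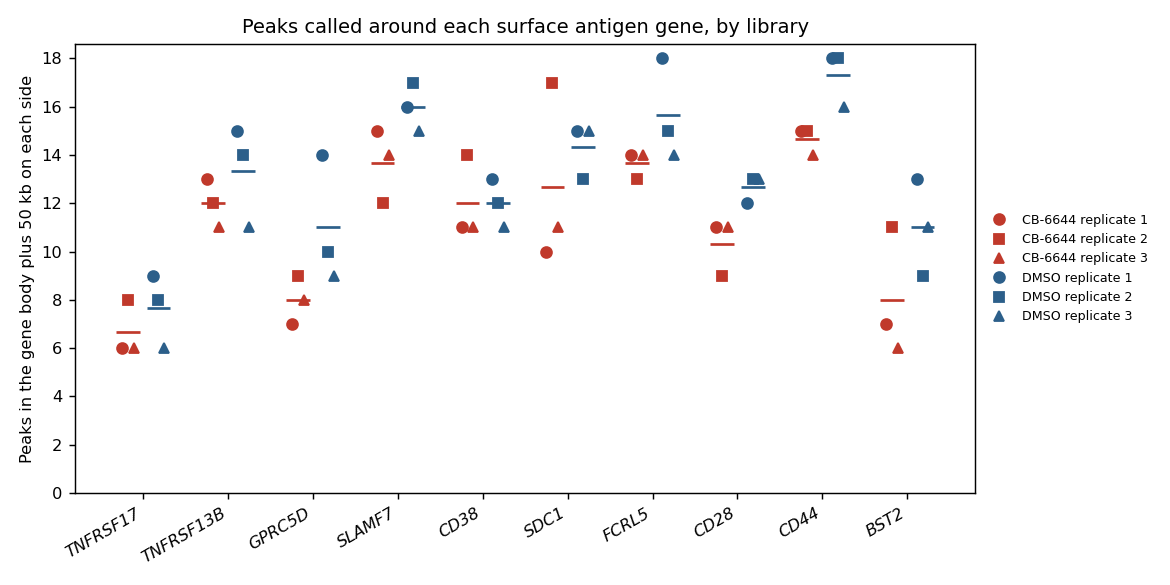
Number of peaks called in the gene body plus 50 kb on each side (vertical axis from 0) at each of the 10 genes, 1 point per library (red, CB-6644; blue, DMSO; circle, square and triangle for replicates 1, 2 and 3), with bars for group means. CD28 and CD44 are the genes at which all red points lie below all blue points, and at CD38 both means are 12.

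Motif matches were counted within 100 bp of the strongest summit, on both strands, and a region may hold several, overlapping ones included. An E-box (CAGGTG), the site of E proteins such as TCF4, was found in 59 of the 159 regions (37.1%) and in 27.6% of all merged regions. IRF (GAAANNGAAA) matched 12 regions, or 7.55%, beside 10.1% of all, MAF (TGCTGAC) 9 or 5.66% beside 5.30%, AP-1 (TGANTCA) 13 or 8.18% beside 10.5%, and STAT (TTCNNNGAA) 11 or 6.92% beside 5.52%. ATF4-CEBP (TGATGNAA) and NF-kB matched 5 regions each (3.14%), beside 3.98% and 6.59%, ETS (CCGGAAG) 4 or 2.52% beside 3.64%, and CTCF (CCNNNAGGGGGC) 7 or 4.40% beside 2.77%. Promoters with an E-box included those of TNFRSF17, TNFRSF13B, SDC1 and CD28, and the promoter of GPRC5D held an ETS match. These are matches of letters, not bound sites.

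Genes related to the 10 were looked up from lists. Of 38 related surface genes, 19 had a promoter peak in all 6 libraries, 12 in none and 7 in some. The promoter percentile was lower in every CB-6644 library at 7 of the 19 and higher at none, beside 16.9% and 1.67% of coding genes with a promoter peak in all 6 libraries. At FCRL4, the neighbour of FCRL5, it was 20.9, 13.5 and 17.8 with CB-6644 and 35.9, 48.0 and 54.5 with DMSO. CTLA4, which lies beyond the CD28 window and encodes the inhibitory receptor for the same ligands, had a promoter peak in the 3 DMSO libraries, at 50.4, 44.1 and 44.7, and in no CB-6644 library. These examples were chosen after their values were seen.

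Among 8 ligands and partners, 5 had a promoter peak in all 6 libraries, and 1 of the 5 was lower in every CB-6644 library, beside 16.9% of such coding genes. It was TNFSF13B, which encodes BAFF, the ligand of TNFRSF13B, at 69.1, 69.6 and 69.7 against 80.3, 79.1 and 76.5. All 6 gamma-secretase genes had a promoter peak in all libraries, and 2 were higher in every CB-6644 library, beside 1.67% of such coding genes. PSENEN stood at 72.7, 80.2 and 72.5 against 71.4, 69.9 and 67.1, and APH1B at 74.1, 72.7 and 72.1 against 70.5, 67.5 and 58.2. Both gaps were narrow, 72.5 against 71.4 at PSENEN and 72.1 against 70.5 at APH1B. The members of these lists were not tested one by one.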

How the data were processed

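The authors aligned Omni-ATAC reads to hg38 with Bowtie2 2.4.2 and called peaks in each library with MACS3 3.0, per the submitters' processing notes, from 6 libraries of sorted live MM.1S cells. The settings are not given in the sources used here. The deposited fold values matched ratios of summit pile-up to local background with a constant added to both. This constant lowers fold most where the background is low, as in CB-6644 replicate 2. The deposited -log10 p and -log10 q values score each summit and were written by the caller that the authors ran. The lists hold no read counts, so the study's test on counts was not run. Groups came from the labels.

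Peaks of the autosomes, X and Y were merged where they overlapped by 1 bp or more and placed with GENCODE release 44. The sequences are from hg38. Summit pile-up and local background were solved from fold and -log10 p under a Poisson model, which matched 100% of peaks. The shortest peak was read as the fragment length estimate, an inference. Percentiles were taken within each list. Regions in all 6 libraries were tested with limma 3.58.1 (R 4.3.3, eBayes with trend) on quantile-normalized log2 fold enrichment, with Benjamini-Hochberg adjustment over 42089 regions, and a call needed an adjusted p under 0.05. Single values used exact two-sided permutation over libraries. Scripts used pandas 2.3.3, numpy 2.4.6, pysam 0.24.0, scipy 1.17.1 and matplotlib 3.10.9 under Python 3.11.15, and the limma step was tested on simulated data. The genes and lists were chosen with earlier results of these data known. Regions named were all promoter regions, all group-only regions, those past the threshold in the fit with group as the only term (there were 0) and each gene's strongest region away from promoters. Others, such as those past it in another fit, were named after their values were seen. Alternatives covered peak thresholds, windows, libraries, scaling, measure and a replicate block.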

Additional observations from a re-analysis of the deposited data

How the results depend on the processing

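The DMSO-only regions at the 10 genes numbered 5 of 159. They numbered 1 among the 20000 top peaks, 15 in the 4 long-fragment libraries, 3 in gene bodies alone, 18 when 2 of 3 libraries sufficed, and 5 to 12 when a library was left out, with 12 without DMSO replicate 1 and 10 without DMSO replicate 3. The genome-wide share of DMSO-only regions moved too: it was 4.5% at first, 9.05% with 2 of 3 libraries, 9.21% in the long-fragment libraries, and 6.89% and 6.51% without DMSO replicates 1 and 3, beside 11.3%, 10.4%, 7.89% and 6.37% at the 10 genes. The CB-6644-only regions numbered 1, against 0 with equal numbers of top peaks, 0 among the 20000 top peaks, 2 in the long-fragment libraries, 0 in gene bodies, and 1 to 2 with a library left out (2 without DMSO replicate 1). The genes with every CB-6644 window count below every DMSO count numbered 2, against 0 with equal numbers, 0 among the 20000 top peaks, 5 in the long-fragment libraries and 2 to 6 with a library left out (5 without CB-6644 replicate 2, 6 without DMSO replicate 3). With fewer libraries that order arises more easily, and its share over coding genes was computed only with all peaks and libraries (6.92%). The higher counts therefore cannot be read as a stronger difference at these genes. Promoters with a peak in every library fell from 9 to 4 among the 20000 top peaks, and those lower in every CB-6644 library from 4 to 2.

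For shared regions, limma called 0 lower and 0 higher of 78. It called 4 and 4 with the fragment-length term, 8 and 3 on pile-up, 9 and 1 on the percentile, 3 and 4 in the long-fragment libraries, and 0 to 2 lower and 0 to 1 higher with a library left out (2 and 1 without CB-6644 replicate 2). Over all shared regions the percentile shifted by a median of -2.64, against -4.08 at the 10 genes. Genome-wide calls ranged from 0, with centring on library medians, to 2706 lower on the percentile.

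Some differences changed sign. The window differences of SDC1, FCRL5 and BST2 were -1.67, -2 and -3 with all peaks. Window counts gave 0.333 for SDC1 with equal numbers of peaks and in the gene body, for FCRL5 and BST2 among the 20000 top peaks, and for BST2 in the gene body. With a library left out, promoter percentiles ranged from -11.1 to 2.62 for TNFRSF13B (2.62 without CB-6644 replicate 1), from -4.06 to 9.27 for SLAMF7 (-4.06 without CB-6644 replicate 2), from -3.45 to 0.194 for SDC1 (0.194 without CB-6644 replicate 1) and from -0.63 to 0.570 for CD28 (0.570, 0.329 and 0.0940 without CB-6644 replicate 3, DMSO replicate 1 and DMSO replicate 2). The cause of these changes was not tested. Of 117 window values under alternatives, 107 kept their direction, 5 fell to 0 and 5 turned. CD38, with a difference of 0 on all peaks, is not among them and ran from -1 to 1.33. Of 101 promoter values, 95 kept their direction, those of TNFRSF17 from -11.99 to -2.58 with a library left out. Percentiles were ranked once in each full list, so cuts by score or number of peaks could not change the value of a promoter still called. Many of the 95 therefore repeat the first value, and no percentile was taken on lists of equal length.

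Whether the replicate numbers of the labels pair the libraries is not known. Deviations of same-numbered libraries correlated at -0.48, -0.33 and 0.33. The highest correlation, 0.57, was that of DMSO replicate 1 with CB-6644 replicate 2. Both are short-fragment libraries and carry different numbers, so these correlations cannot decide the pairing. With the number as a replicate block, limma called 0 regions lower and 0 higher at the 10 genes. It also called 0 in each direction among all 42089 shared regions, so that fit says nothing particular to these genes. The smallest p that a paired permutation of these libraries can give is 0.25, so no paired value could pass the threshold. Depth is known only through the background tags, which limits how a missing peak can be read.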
